A study of Mus musculus with 63 samples.

Results

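The Wnt and Fgf ligand genes were taken by symbol from the deposited gene tables, which gave 41 of 24990 rows, 19 of them Wnt genes and 22 Fgf genes. Wnt proteins are secreted, lipid-modified ligands that bind Frizzled receptors with the co-receptors Lrp5 and Lrp6 or with Ror1, Ror2 and Ryk, and they act through beta-catenin or through pathways without it. Most Fgf proteins are secreted ligands of the receptor tyrosine kinases Fgfr1 to Fgfr4, and some of them act as circulating hormones through Klotho co-receptors. Fgf11, Fgf12, Fgf13 and Fgf14 are Fgf homologues that stay inside the cell, where they bind voltage-gated sodium channels, and they are kept here as members of the gene family and not as secreted ligands. Wnt and Fgf ligands pattern the neural tube, the limbs and the body axis of the midgestation embryo, and several of them are made by fibroblasts and by neurons.

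The study examined Chaserr, a long noncoding RNA gene upstream of Chd2, which encodes a chromatin remodeller. RNA was sequenced in 47 libraries, from whole embryos at E9.5 and at E13.5, adult brains, mouse embryonic fibroblasts (mEFs) and an RNA immunoprecipitation (RIP) from Neuro2a cells, and ATAC-seq, which maps open chromatin, in 12 libraries of mEFs. WT and Chaserr+/- (Het) samples, 3 libraries each, stood for each embryo stage and for adult brains. For mEFs there were 4 sets, each with 3 WT libraries of its own: Chaserr+/- (Het, 3 libraries), Chaserr-/- (KO, 3), Chd2 m/m (2), and the double mutant Chaserr-/- Chd2 m/m (DKO, 3). The Chaserr allele is a CRISPR deletion of the promoter and the first exon, carried in the Het and KO sets by founder lines that were used interchangeably. In the DKO the same region was deleted anew, in Chd2 m/m mice and with fewer guides. By title, the DKO mEFs came from a Chd2+/m cross and their WT libraries from a Chaserr+/- Chd2+/m cross, and it was the description field that paired both groups. The Chd2 m allele is a small frameshift deletion in an early exon of Chd2 and lowers CHD2 protein without removing it. Guides were injected on CB6F1 Ola HSD mice, with later backcrossing to C57BL/6 Ola HSD, and mEFs were primary cultures of E13.5 embryos without head and liver. Neuro2a is a mouse neuroblastoma line, and its RIP had 2 libraries each of the precipitate with a CHD2 antibody, the precipitate with IgG and the input.

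Total expected counts ran from 7621335 to 33192002 per RNA library. Chaserr was at 40.2, 43.9 and 48.4 TPM (transcript abundance corrected for transcript length and library depth) in WT embryos at E9.5 and at 21.4, 21.7 and 28.6 TPM in Het embryos. It was at 8.63 to 13.8 TPM in the WT mEFs of the KO set and at 0 in the 3 KO libraries, and at 80 to 93.7 TPM in the WT mEFs of the DKO set and at 0 to 0.23 in DKO libraries, as the labels of both alleles have it. In the other Het sets its mean was lower than in WT, without overlap in brains (14.1 to 23.5 against 30 to 36 TPM) and mEFs (10.4 to 15.8 against 18.4 to 22.2), and with overlap at E13.5 (29.9 to 42.5 against 42.1 to 64.6). Chd2, which the Chd2 m allele leaves transcribed, was at 4.82 to 5.24 TPM in the WT libraries of its set and at 7.76 and 8.19 TPM in Chd2 m/m mEFs. Markers of other cells were present in several mEF and RIP libraries, and their values are given beside the results they touch. In whole embryos, brains and cultures, fewer cells of a type and less RNA per cell cannot be told apart.

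The ligand repertoire was widest in the E13.5 embryo. A mean of at least 1 TPM in WT libraries was reached by 25 of the 41 genes at E9.5 (15 Wnt and 10 Fgf), 32 at E13.5 (17 and 15), 23 in adult brain (11 and 12), 20 in mEFs (11 and 9) and 15 in Neuro2a input (7 and 8). As shares of the 41 genes these were 61%, 78%, 56.1%, 48.8% and 36.6%, against 52.6%, 59.4%, 58.6%, 51.9% and 52.6% of all rows. The embryos and replicate 3 of both brain groups were made with the TruSeq kit, and the other brains and the mEFs with the Lexogen SENSE kit. Both are mRNA kits. The Neuro2a input and RIP libraries were made with a total RNA kit after depletion of ribosomal RNA (RiboCop). Kit and source therefore cannot be told apart between embryos and mEFs, or between Neuro2a input and the other sources. Levels between sources were not tested.

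**Figure D1:**
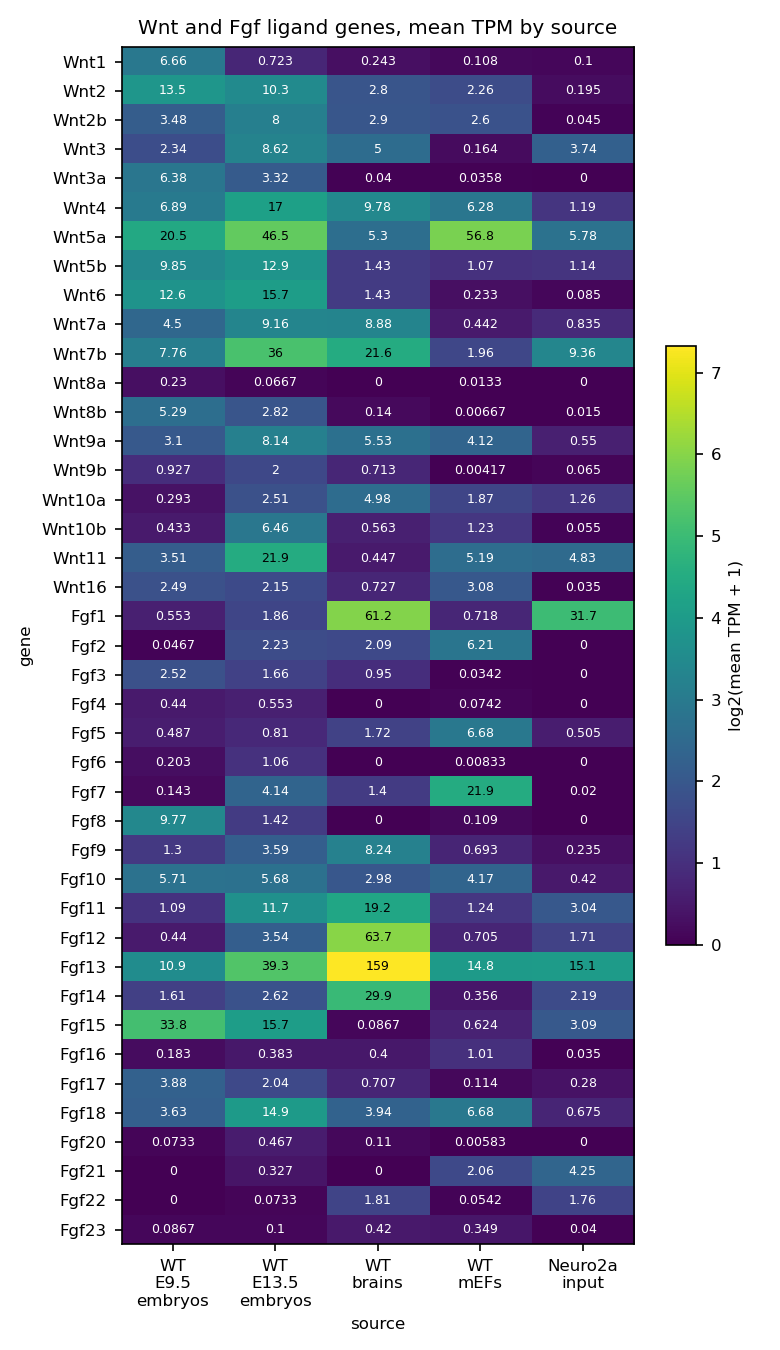
Mean TPM of the 41 Wnt and Fgf genes (rows) in WT E9.5 embryos, WT E13.5 embryos, WT adult brains, WT mEFs (12 libraries) and Neuro2a input (columns); colour is log2(mean TPM + 1) and the printed number is the mean TPM. Fgf13 in brain (159) and Wnt5a in mEFs (56.8) were the highest values of their columns, and Fgf15 (33.8) led at E9.5.

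Wnt4, Wnt5a, Wnt5b, Wnt7b, Fgf11 and Fgf13 reached 1 TPM in all 5 sources, and Wnt8a, Fgf4, Fgf20 and Fgf23 in none. Wnt1, which marks the midbrain and the dorsal neural tube, did so only in E9.5 embryos, where it was at 6.22, 5.77 and 7.99 TPM. Wnt9b, a Wnt of the kidney duct, and Fgf6, a muscle Fgf, did so only at E13.5, and Fgf16 only in mEFs, with 1.27 and 1.44 TPM in the Het and Chd2 m/m sets and 0.817 and 0.497 in the other 2 sets. Few genes were wholly undetected. No gene was at 0 counts in every WT E13.5 or every WT mEF library, but Fgf21 and Fgf22 were at E9.5, Wnt8a, Fgf4, Fgf6, Fgf8 and Fgf21 in brain, and 8 genes in Neuro2a input.

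At E9.5 the most abundant transcript of the family was that of Fgf15, the mouse counterpart of human FGF19 and a gene of the developing neural tube, at 30.2, 32.4 and 38.9 TPM. Wnt5a, a ligand of outgrowth zones that mostly acts without beta-catenin, followed at 19.8 to 21.7 TPM, and Wnt2, a Wnt of the early heart and lung field, at 13.2 to 14 TPM. Every Fgf15 value lay above every Wnt5a value, and every Wnt5a value above every Wnt2 value. Below them, Wnt6 (12.6 TPM on average), Fgf13 (10.9), Wnt5b (9.85) and Fgf8 (9.77), the organiser signal of the midbrain-hindbrain boundary and of the tail bud, overlapped between libraries. At E13.5 Wnt5a led with 43.5, 46.8 and 49.1 TPM. Fgf13 (34.7 to 43.4 TPM) and Wnt7b (33.5 to 38.6), a Wnt of neural and lung epithelium, overlapped, and Wnt11 (21.1 to 23.5) came next. Wnt4 (16.4 to 17.3 TPM), a Wnt of kidney and gonad, lay below Wnt11 in every library and overlapped with Fgf15 (13.7, 13.8 and 19.6).

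In the adult brain the intracellular Fgf genes were the most abundant. Fgf13 was at 178, 139 and 159 TPM and Fgf12 at 63.2, 52.3 and 75.5 TPM in the WT brains. Fgf1, a secreted Fgf without a classical signal peptide, was at 56.2, 63.6 and 63.9 TPM, within the range of Fgf12, and Fgf14 at 25.7 to 32.3 TPM. The 4 intracellular genes made up 63.1% of the summed TPM of the 41 genes in brain, against 7.46% at E9.5, 17.4% at E13.5, 11% in mEFs and 23.4% in Neuro2a input. The Wnt genes together made up 16.9% in brain, against 59.1%, 65.3%, 56% and 31% in the other sources. Among brain Wnt genes, Wnt7b was highest at 18.2 to 23.7 TPM. Replicate 3, from the other kit, stood apart for Wnt7a, a Wnt of neurons and of brain vessels, with 14.4 TPM in WT and 18.1 in Het against 4.85 to 6.41 in the other 4 brains. Wnt9a did so as well, with 8.49 and 13.4 TPM against 3.76 to 4.87.

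In WT mEFs Wnt5a was the highest gene of the family in each of the 12 libraries, at 40.5 to 101 TPM. Fgf7, a fibroblast Fgf that signals to epithelium, was at 8.57 to 32.8 TPM and Fgf13 at 8.06 to 24.6. Fgf5, Fgf18, Wnt4, Fgf2 and Wnt11, at means of 6.68 to 5.19 TPM, overlapped with their neighbours. In Neuro2a input Fgf1 was at 21.9 and 41.5 TPM, Fgf13 at 14.2 and 16.1 and Wnt7b at 8.87 and 9.84, but these libraries also held RNA of brain genes, as described with the RIP.

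Between E9.5 and E13.5, 80.0% of the ligand genes tested changed, a share like that of all genes, and more of them rose than fell. Of 35 genes tested in WT embryos, 20 rose and 8 fell at an adjusted p under 0.05 (edgeR's quasi-likelihood test, Benjamini-Hochberg adjustment over all genes), against 42.1% and 38.3% of all genes tested, 80.4% in either direction. The median log2 fold change, E13.5 over E9.5, was 0.91 for these genes and 0.06 for all. DESeq2 called 20 higher and 7 lower (68.8% of all genes in either direction), the difference being Wnt16 (edgeR -0.47, adjusted p 0.0311; DESeq2 adjusted p 0.131). By family, 11 of 18 Wnt genes rose and 5 fell, and 9 of 17 Fgf genes rose and 3 fell. Wnt10a, Wnt10b, Fgf2, Fgf6 and Fgf7 had under 10 counts in some E9.5 libraries and met the filter on low counts through the E13.5 libraries. Every gene that fell had at least 10 counts in every library. The count of genes that rose and the median above include these low genes. Values per library below are CPM, counts relative to library size after TMM scaling, which compare samples for a gene and not genes with each other.

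The genes that fell included signals of the early neural tube and tail. Wnt1 was at 7.64, 8.13 and 10.2 CPM at E9.5 and at 0.729, 0.749 and 0.893 at E13.5 (log2 fold change -3.45, SE 0.181, adjusted p 1.27e-07). Fgf8 was at 4.61, 5.71 and 5.83 CPM at E9.5 and at 0.607, 0.681 and 0.695 at E13.5 (-3.02, SE 0.184, adjusted p 3.28e-07). Every E9.5 library lay above every E13.5 library for both. Fgf17, of the same subfamily as Fgf8, fell by 1.18 on the log2 scale (SE 0.235, adjusted p 0.00118), whereas Fgf18, the remaining member and a signal of bone and cartilage, rose from 2.84 to 3.1 CPM to 8.89 to 11.1 (1.78, SE 0.129, adjusted p 1.07e-06). Fgf15 was at 29.4, 31.9 and 37 CPM at E9.5 and at 15.9, 11.3 and 11.2 at E13.5 (-1.36, SE 0.146, adjusted p 1.66e-05). Wnt3a, which maintains the tail bud and the dorsal neural tube, was at 7.38, 8.87 and 12.9 CPM and then at 4.13, 4.29 and 4.32 (-1.19, SE 0.194, adjusted p 0.000312). Wnt8b, a forebrain Wnt, fell by 1.16 (SE 0.151, adjusted p 6.59e-05) and Wnt2 by 0.65 (SE 0.0876, adjusted p 8.38e-05), again without overlap.

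The genes that rose included Wnt genes of organs and limbs. Wnt11 was at 5.3, 5.42 and 5.51 CPM at E9.5 and at 27, 27.4 and 30.4 at E13.5 (2.38, SE 0.0868, adjusted p 1.78e-08, the smallest of the family). Wnt7b rose from 12.6, 15.3 and 16.2 CPM to 53.6, 57.2 and 61.3 (1.96, SE 0.0981, adjusted p 9.35e-08). Wnt10b, a Wnt of skin and bone, rose from 0.367, 0.442 and 0.775 CPM to 6.25, 6.68 and 6.88 (3.64, SE 0.236, adjusted p 4.87e-07). These 3 genes left the E9.5 range entirely, as did Wnt10a (2.82, SE 0.266), Wnt3 (1.63, SE 0.121), Wnt9a (1.14, SE 0.102), Wnt4 (1.05, SE 0.068), Wnt2b (0.95, SE 0.0962), Wnt5a (0.91, SE 0.0641), Wnt9b (0.87, SE 0.18) and Wnt7a (0.77, SE 0.135). Wnt5a, the highest of them in TPM, went from 44.2, 46.3 and 49.2 CPM to 81.8, 88.5 and 93.1. Wnt5b (0.14, SE 0.0985) and Wnt6 (0.07, SE 0.0809) did not pass and their groups overlapped.

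Among Fgf genes, Fgf7 rose from 0.043, 0.204 and 0.398 CPM to 4.49, 5.14 and 5.79 (4.56, SE 0.381, adjusted p 2.81e-06). Fgf2, a broad growth factor held in the matrix, had 1, 0 and 0 counts in the E9.5 libraries and 14, 22 and 15 in the E13.5 libraries (adjusted p 0.000125). Fgf9 (1.22, SE 0.121), Fgf1 (1.49, SE 0.175) and Fgf6 (2.09, SE 0.48, adjusted p 0.00278) rose as well. Of the intracellular genes, Fgf11 rose from 1.24, 1.59 and 1.79 CPM to 13.1, 13.8 and 15.1 (3.17, SE 0.148, adjusted p 6.2e-08) and Fgf12 from 0.99, 1.02 and 1.22 to 8.54, 8.82 and 9.07 (3.02, SE 0.143, adjusted p 6.88e-08). Fgf13 rose by 1.49 (SE 0.132, adjusted p 4.23e-06), and the value for Fgf14, 0.46 (SE 0.194), missed the threshold at an adjusted p of 0.0531. Fgf3 (-0.86, SE 0.358, adjusted p 0.0501) and Fgf10 (-0.26, SE 0.114, adjusted p 0.0603), the limb and lung Fgf, missed it too, as did Fgf4 and Fgf5. Between the stages the summed TPM of 7 neuron markers went from 22.9-25.6 to 345-413, of 11 macrophage markers from 7.53-8.74 to 311-345 and of 8 skeletal muscle markers from 82-108 to 1187-1780, with no marker of these lists at 0. The part of these cell types in the ligand changes was not tested.

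**Figure D2:**
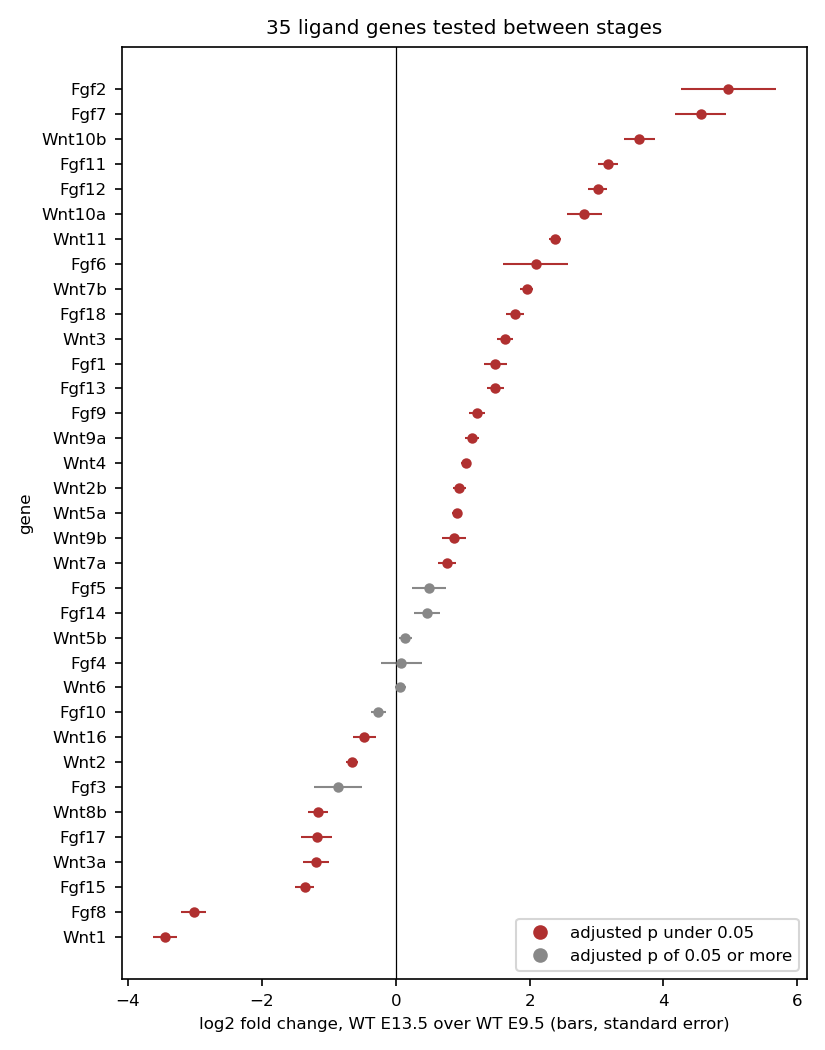
Log2 fold change of the 35 ligand genes tested between WT E13.5 and WT E9.5 embryos (3 libraries each), in order of size; points are edgeR estimates, bars the standard error, red points an adjusted p under 0.05. Wnt1 (-3.45) and Fgf8 (-3.02) were the lowest, and Fgf7 (4.56) and Fgf2, which had 1 count over the E9.5 libraries, the highest.

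Of the 63 other genes of both pathways on the lists, 27 rose and 26 fell between stages, or 42.9% and 41.3%, beside the 42.1% and 38.3% of all genes. Receptors of Wnt mostly fell, with 10 of 15 lower, among them Fzd7 (-1.45) and Fzd3 (-1.44), and 4 higher, led by Fzd6 (0.97). Among 11 secreted Wnt antagonists 6 rose, Wif1 by 3.77, Dkk2 by 3.03 and Sfrp2 by 1.11, and 4 fell, Frzb by 1.09, Sfrp5 by 0.85 and Sfrp1 by 0.65. The R-spondins, which strengthen Wnt signals through Lgr receptors, split into Rspo3 (0.65) and Rspo2 (0.58), which rose, and Rspo4 (-3.02), which fell. Of 10 Wnt feedback targets 5 rose (Rnf43 by 1.64, Apcdd1 by 1.49) and 4 fell (Tcf7 by 1.60, Znrf3 by 0.83). Axin2, the most general of these targets, did not pass, at 73.2 ± 2.9 CPM at E9.5 and 68.2 ± 7.83 at E13.5 (SD, n = 3). Of 7 Fgf receptors and co-receptors 4 rose, Fgfr4 by 2.49 and Fgfr1 by 0.41 among them. Of 12 Fgf feedback targets 4 rose (Spry4 by 1.02) and 5 fell (Dusp6 by 1.29, Spred1 by 0.84).

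In the mutants no ligand gene passed the threshold. The 7 comparisons of a mutant with its own WT libraries gave 186 tests of ligand genes, of which 14 had an unadjusted p under 0.05 in edgeR and 0 an adjusted p under 0.05. DESeq2, which gave an adjusted p to 15 to 39 of the genes per comparison, called 0 as well. Of all genes, edgeR called 0% at E9.5, 0.0314% at E13.5, 0% in adult brain, and 0.173%, 0.118%, 0.0145% and 0.0924% in Het, KO, Chd2 m/m and DKO mEFs. DESeq2 called 0.0262%, 0.127%, 0.00506%, 0.589%, 21.1%, 0.0656% and 1.65% in the same order. Wnt8a, Fgf20 and Fgf22 were too low to be tested in any of them, and 16 genes were tested in all 7. The median SE of a log2 fold change was 0.14 to 0.32 in embryos and mEFs and 0.40 in brains, where the main fit did not include the library kit. Differences of that size or below were not detectable at this depth and number of libraries. The SE is not a detection limit, and larger differences also missed the threshold, such as Wnt2 in Het mEFs (0.80, SE 0.218, edgeR adjusted p 0.256).

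In Het embryos the ligand genes lay close to WT. At E9.5 all 31 genes tested had a log2 fold change within 0.5 of 0, and 1, Wnt7b, had an unadjusted p under 0.05 (3.12% of all genes did). Wnt7b was at 15.3, 15.5 and 15.7 CPM in Het and at 11.2, 13.6 and 14.4 in WT embryos (0.25, SE 0.106, adjusted p 1). It was 1 of 3 genes without overlap (9.62% of all genes), with Fgf17 at 3.64 to 4.34 CPM in Het and 2.48 to 3.45 in WT, and Fgf11 at 0.922 to 1.05 in Het and 1.1 to 1.59 in WT. Replicate 3 of the Het embryos had Wnt2 at 3.9 TPM and Wnt11 at 1.38, below the 11.2 to 15.9 and 2.9 to 3.63 TPM of the other 5 libraries. Summed fibroblast markers at E9.5 were at 439-573 TPM in Het and 596-782 in WT, with 4 of 7 lower at an unadjusted p under 0.05 in edgeR. Skeletal muscle markers were at 20.6-90.8 against 82-108 TPM, with 0 of 7 tested lower at that level. The part of these markers in the ligand values was not tested. At E13.5 all 36 genes tested lay within 0.5 and 0 had an unadjusted p under 0.05 (6.34% of all genes did). The groups of Wnt2, Wnt11 and Wnt3a did not overlap, 3 genes against 12.8% of all. Wnt2 was at 8.87, 9 and 10.4 CPM in Het and 10.7, 10.7 and 11.8 in WT (-0.22, adjusted p 0.732), Wnt11 at 25.1, 28 and 29.6 against 29.9, 30.5 and 33.7, and Wnt3a at 3.29, 4.19 and 4.38 against 4.58, 4.76 and 4.79.

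In Het brains, 24 genes were tested, and 1 had an unadjusted p under 0.05 (2.47% of all genes). It was Wnt10b, at 0.925, 1.27 and 1.97 CPM in Het and 0.246, 0.523 and 0.914 in WT (1.40, SE 0.577, adjusted p 1). Fgf12 was at 116, 125 and 128 CPM in Het and 137, 160 and 176 in WT brains (-0.36, unadjusted p 0.0616), and these were the 2 genes without overlap (9.22% of all). With replicate number as a block, again 0 ligand genes passed. Replicate 3 of both groups was made with TruSeq and the others with SENSE, so no pairing apart from the kit was shown. With the kit as a covariate 0 of 14911 genes were called, and without the TruSeq libraries 0 of 14936. At an unadjusted p under 0.05 in edgeR these fits had 2258 and 1766 genes, against 368 in the main fit.

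In mEFs, the Het set held the most ligand genes at an unadjusted p under 0.05, 6 of 23 tested, or 26.1%, against 8.36% of all genes. Of these, 5 were higher, among them Wnt10a (0.61), Fgf5 (0.54) and Fgf16 (0.64), whose groups overlapped. Wnt2 was at 3.54, 3.99 and 4.68 CPM in Het mEFs and at 1.97, 2.26 and 2.77 in WT (0.80, SE 0.218, unadjusted p 0.00364, adjusted p 0.256). Wnt5a was at 124, 132 and 139 CPM against 107, 108 and 111 (0.27, SE 0.0768, unadjusted p 0.00424, adjusted p 0.273). Fgf2 was the gene that was lower, at 1.57, 1.63 and 1.73 CPM against 1.93, 2.42 and 2.92 (-0.56, unadjusted p 0.0463, adjusted p 0.586). In all, 5 of the 23 genes did not overlap (14.5% of all genes), 18 of 23 had a positive log2 fold change, and their median was 0.23 against 0.00 for all genes. Skeletal muscle markers moved in the same set, with a summed TPM of 254-367 in Het against 160-180 in WT mEFs and 7 of 8 at an unadjusted p under 0.05, none of them at 0. Chondrocyte markers were at 196-278 against 164-191 TPM, with 4 of 7 higher at an unadjusted p under 0.05. The part of these markers in the ligand values was not tested.

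In KO mEFs 2 of 25 ligand genes (8%) had an unadjusted p under 0.05, beside 33.9% of all genes. The groups did not overlap in 4 genes, against 43.2% of all. Fgf13 was at 14.5, 16 and 26.9 CPM in KO and 11.6, 12.5 and 14.2 in WT mEFs (0.58, SE 0.239, adjusted p 0.121). Fgf7 (0.57, adjusted p 0.127) was at 21, 10.4 and 14.1 TPM in KO and 11.2, 9.1 and 8.57 in WT. KO replicate 1 was the highest library for both. Without KO replicate 2, Fgf13 (0.76, adjusted p 0.0469) and Fgf7 (0.78, adjusted p 0.0317) passed, in a fit that called 2827 of 13770 genes (20.5%) where the fit with all libraries called 16. Fgf9 was at 1.33, 1.76 and 2.36 CPM in KO and 0.911, 1.04 and 1.28 in WT (0.75, unadjusted p 0.0655). Wnt2b was at 4.31, 5.45 and 5.92 CPM in KO and 6.1, 6.88 and 7.81 in WT (-0.40, unadjusted p 0.101). Summed macrophage markers were at 888-966 TPM in KO and 1210-1438 in WT libraries of this set, and muscle markers at 381-424 against 561-735, with 8 of 11 and 7 of 8 lower at an unadjusted p under 0.05. Fibroblast markers were at 4550-5464 against 5613-5785 TPM, with 2 of 7 lower. Chondrocyte markers were at 31.7-77.9 against 79.1-119 TPM, with 3 of 8 lower. Epithelial markers went the other way, at 310-344 against 162-310 TPM, with 3 of 7 higher. Their part in the ligand values was not tested.

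In Chd2 m/m mEFs, 1 of 23 genes had an unadjusted p under 0.05 (4.51% of all genes). It was Wnt2b, at 6.98 and 7.21 CPM in Chd2 m/m and 4.35, 5.01 and 5.3 in WT (0.54, SE 0.156, unadjusted p 0.00599, adjusted p 0.937). Fgf10, at 9.31 and 9.76 CPM against 10.2, 10.4 and 10.7, was the other of 2 genes without overlap (20.7% of all). In DKO mEFs 3 of 24 genes had an unadjusted p under 0.05 (9.89% of all genes), and 5 did not overlap (13.8% of all). Fgf5 was at 5.49, 7.33 and 7.82 CPM in DKO and 9.23, 9.36 and 10.4 in WT (-0.48, SE 0.182, adjusted p 0.392). Fgf12 was at 2.15, 2.25 and 2.38 CPM against 3.27, 3.28 and 3.79 (-0.60, adjusted p 0.432), and Fgf16 at 1.13, 1.37 and 2.07 against 0.698, 0.821 and 0.897 (0.90, adjusted p 0.455). Muscle markers in this set were at 309-429 TPM in DKO and 222-273 in WT, and macrophage markers at 493-733 and 776-883. Fibroblast markers were at 3323-3667 TPM in DKO and 3773-4587 in WT, with 5 of 7 lower and 1 higher at an unadjusted p under 0.05. Chondrocyte markers were at 121-147 TPM in DKO and 57.2-106 in WT, with 1 of 8 higher. Epithelial markers were at 74.2-79.7 and 64.4-122 TPM, with 2 of 7 lower. The part of these markers in the ligand values was not tested. When the KO and DKO effects were compared in an interaction term over both sets, 0 of 27 genes passed, and 1, Wnt2b (-0.86, SE 0.294, unadjusted p 0.0113, adjusted p 0.105), had an unadjusted p under 0.05 (26.2% of all genes did). DESeq2 called 0 as well, and 12.9% of all genes against 0.112% by edgeR.

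**Figure D3:**
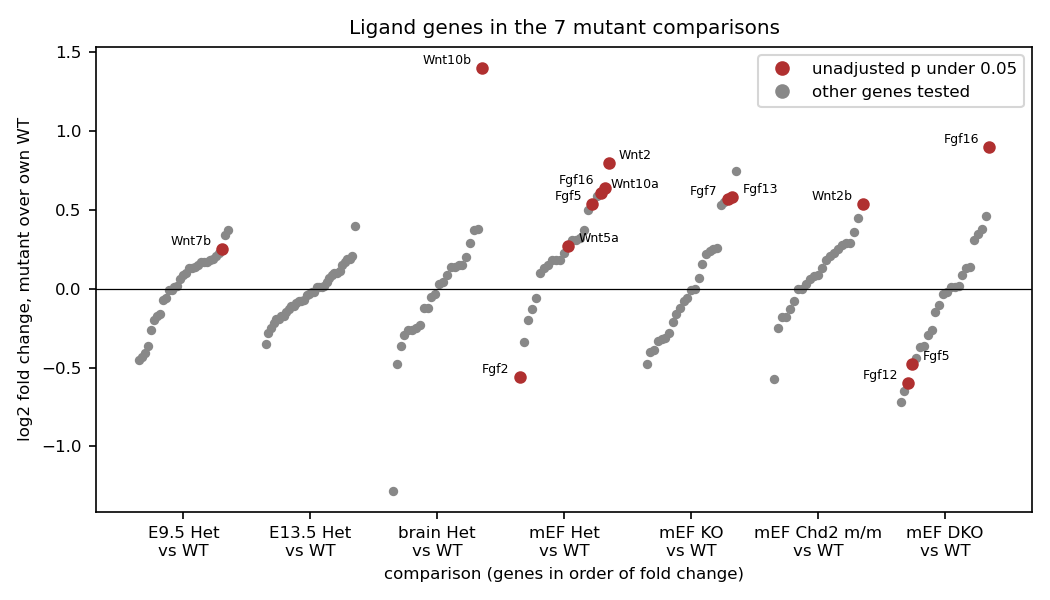
Log2 fold change of each ligand gene tested, mutant over its own WT, in 7 comparisons (genes in order of size within a comparison); red points have an unadjusted p under 0.05 and none an adjusted p under 0.05. All genes at E9.5 and E13.5 lie within 0.5 of 0, and the 6 red genes of the mEF Het set are the most in any comparison.

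The receptors, antagonists and targets of both pathways gave few calls in mutants. Of the 63 pathway genes on the lists, 54 to 63 were tested per comparison, and 0 passed in Het embryos, Het brains, Het mEFs, Chd2 m/m mEFs and DKO mEFs by edgeR. At an unadjusted p under 0.05 there were 2 at E9.5 (3.33% of those tested, and 3.12% of all genes), 4 at E13.5 (6.35% and 6.34%) and 1 in Het brains (1.72% and 2.47%). In mEFs there were 12 in Het (22.2% and 8.36%), 19 in KO (33.3% and 33.9%), 5 in Chd2 m/m (9.09% and 4.51%) and 11 in DKO (19.3% and 9.89%). DESeq2 called 1 in Het mEFs and 3 in DKO mEFs, where it called 0.589% and 1.65% of all genes, and 0 in the other 4. In KO mEFs 1 of 57 genes passed by edgeR, or 1.75% against 0.118% of all genes. It was the Wnt receptor Fzd2, at 116 ± 15 CPM in KO and 222 ± 17.9 in WT (SD, n = 3, log2 fold change -0.94, SE 0.133, edgeR adjusted p 0.0406). DESeq2 called 9 of these 57 genes, where it called 21.1% of all genes. Fzd6 (0.77, adjusted p 0.0522) and Sfrp2 (-0.63, adjusted p 0.0522) missed the threshold narrowly.

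The WT mEFs of the 4 sets differed from one another, beside log2 fold changes of -0.72 to 0.90 for ligand genes in mEF mutants against their own WT. Of the 20 ligand genes at a mean of at least 1 TPM in WT mEFs, 14 (70%) had a highest set mean at least 2 times the lowest, as had 46.2% of the 12975 rows at that level. The median ratio was 2.71 for the ligand genes and 1.93 for all these rows. Wnt4 was at 2.36 to 3.2 TPM in the WT libraries of the Het set, 11.3 to 14.4 in the KO set, 2.26 to 3.08 in the Chd2 m/m set and 5.82 to 8.28 in the DKO set. Fgf21, a hormone-like Fgf of stressed cells, was at means of 1.33, 4.56, 0.527 and 1.84 TPM in the same order, a ratio of 8.65. Fgf7 was at 21.2 to 27.8, 8.57 to 11.2, 24 to 28 and 23.9 to 32.8 TPM. The KO set stood apart in all 3, high for Wnt4 and Fgf21 and low for Fgf7. Wnt5a was at means of 50.1, 47.1 and 43.7 TPM in the first 3 sets and 86.1 in the DKO set, and Wnt10b was highest in the Het set (2.7 against 0.653 to 0.817). The KO set also had the highest macrophage markers (1210-1438 TPM against 279 to 883 in the WT libraries of the other sets) and epithelial markers (162-310 against 40 to 122). The part of these cells in the ligand levels was not tested, and cannot be told apart from the set itself.

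**Figure D4:**
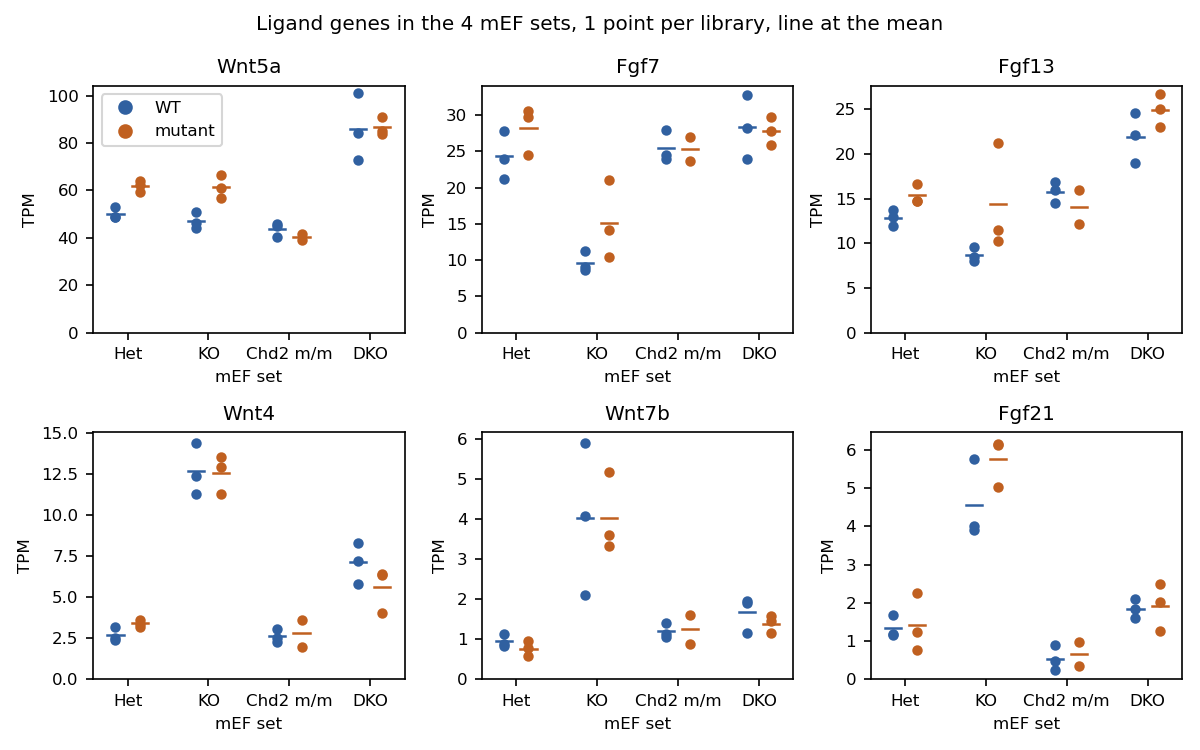
TPM of Wnt5a, Fgf7, Fgf13, Wnt4, Wnt7b and Fgf21 in the 4 mEF sets, 1 point per library (blue WT, orange mutant) with a line at each mean; the vertical axis starts at 0. Wnt5a and Fgf13 are higher in every mutant than in every WT library of the Het and KO sets, as for Wnt5a in KO (57 to 66.7 against 44.1 to 51.1 TPM). In TMM-scaled CPM, Wnt5a of the KO set and Fgf13 of the Het set overlapped. Elsewhere WT and mutant of a set overlap or touch. Sets differ as well, as for Wnt4 (means of 2.69, 12.7, 2.61 and 7.11 TPM in WT libraries of the Het, KO, Chd2 m/m and DKO sets).

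Fgf15 and Fgf4, an Fgf of the early embryo and of pluripotent cells, were counted in the DKO set and nearly nowhere else among mEFs. Fgf15 had 23, 44 and 32 counts in its WT libraries and 20, 23 and 22 in DKO libraries, against 0 to 4 in the 17 libraries of the other sets, and Fgf4 had 2 to 9 against 0 to 3. The same 6 libraries held 31 to 125 counts of Pou5f1 and 31 to 101 of Lin28a, genes of pluripotent cells that were chosen after their values were seen, against 0 to 7 and 0 to 3 elsewhere. WT and DKO libraries overlapped in these counts, and no ATAC-seq peak lay at the Fgf15 start in the 6 libraries of this set. In the Chd2 m/m set all 5 libraries held RNA of brain genes that were likewise chosen after their values were seen. Slc17a7, a transporter of glutamatergic neurons, had 84 to 169 counts there against 0 to 11 elsewhere. Camk2a had 475 to 968 counts there against 40 to 122 elsewhere. The summed TPM of 7 neuron markers did not set this set apart from the DKO set. It was 43.1-59.5 in WT and 33.3-42.5 in Chd2 m/m libraries, and 25.4-49.2 in WT and 39.5-50.2 in DKO libraries. In the Het set it was 11.3-13.8 in WT and 14.7-15.2 in Het, and in the KO set 18.7-21 in WT and 16.2-28.9 in KO. The part of this RNA in the ligand values was not tested.

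Open chromatin was read at the start sites of the ligand genes in mEFs. A peak was counted at a gene where it overlapped the 300 bases on either side of an annotated start site. Over the 12 libraries 31 of 41 genes had such a peak in at least 1 library, 10 had none (Wnt3a, Wnt6, Wnt8a, Wnt8b, Wnt10a, Wnt10b, Fgf6, Fgf11, Fgf17 and Fgf21), and 1, Fgf20, had one in every library. These were 75.6%, 24.4% and 2.44% of the ligand genes, against 65.9%, 34.1% and 33.2% of 22238 genes with an annotated start site. The number without a peak depended on the setting. It was 6 with 1000 bases on either side, and 13 with peaks at a -log10 q of at least 5. The libraries were uneven, with 18661 peaks in WT replicate 2 of the DKO set, 28349 in DKO replicate 1 and 58324 to 93597 in the others, and 1 to 27 ligand genes with a peak per library (2.44% to 65.9%, against 34.8% to 63.0% of the 22238 genes). In the 10 deeper libraries, 7 genes had a peak throughout (Wnt2, Wnt2b, Wnt11, Fgf5, Fgf7, Fgf13 and Fgf20), a selection of libraries made after seeing the data. Of the 20 genes at 1 TPM or more in the WT mEFs of these 2 sets, 6 had a peak in all 10 and 3 in none, against 83.3% and 6.36% of 11267 genes at that level.

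The fold enrichment at the summit was 4.7 to 10.4 at Fgf5, 4.57 to 6.18 at Fgf7, 3.72 to 6.77 at Wnt2 and 3.71 to 8.12 at Wnt2b. At Wnt5a, the highest ligand gene of mEFs, it was 2.63 to 4.74, with a peak in 7 of 12 libraries, and Wnt7b had a peak in 1. The peak of Fgf20 (8.97 to 13.8), a gene at 0 TPM in these cells, lay at an upstream start site within 1000 bases of the start of Efha2, and its other start site had a peak in 3 libraries. Fgf15 had a peak in 3 of 3 KO libraries and 1 of 3 WT libraries of that set, while its RNA had 0 to 2 counts there.

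Sequence upstream of the start sites of 6 genes is shown so that genes with a steady peak can be set beside genes at 1 TPM or more without one. The first 4 are some of the Wnt and Fgf genes with a peak in all 10 deeper libraries. Wnt10a and Fgf21 are some of those that reached 1 TPM in mEFs but had a peak in none. Each is the 150 bases before a GENCODE vM1 start site on mm9, written in the direction of transcription with GGGCGG (a GC box), TATAAA and CCAAT on either strand in capitals. None of these bases lay in an exon of a ligand gene, and exons of other genes were not checked.
Wnt2, chr6:17980586-17980735 (- strand): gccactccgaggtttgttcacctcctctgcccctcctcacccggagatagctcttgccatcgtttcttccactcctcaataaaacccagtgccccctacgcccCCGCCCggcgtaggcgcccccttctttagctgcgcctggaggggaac
Wnt2b, chr3:104764628-104764777 (- strand): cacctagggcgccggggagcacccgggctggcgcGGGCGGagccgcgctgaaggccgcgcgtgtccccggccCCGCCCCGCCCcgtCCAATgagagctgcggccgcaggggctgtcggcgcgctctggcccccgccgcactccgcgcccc
Fgf5, chr5:98683053-98683202 (+ strand): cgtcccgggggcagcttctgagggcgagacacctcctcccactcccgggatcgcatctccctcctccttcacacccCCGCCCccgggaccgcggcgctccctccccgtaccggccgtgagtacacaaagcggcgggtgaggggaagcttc
Fgf7, chr2:125860244-125860393 (+ strand): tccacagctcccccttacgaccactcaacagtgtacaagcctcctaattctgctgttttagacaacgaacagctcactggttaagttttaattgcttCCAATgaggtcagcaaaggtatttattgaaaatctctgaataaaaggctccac
Wnt10a, chr1:74837940-74838089 (+ strand): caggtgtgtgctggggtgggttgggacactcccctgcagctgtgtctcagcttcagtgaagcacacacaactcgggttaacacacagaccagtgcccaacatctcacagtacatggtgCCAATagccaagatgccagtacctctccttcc
Fgf21, chr7:52870861-52871010 (- strand): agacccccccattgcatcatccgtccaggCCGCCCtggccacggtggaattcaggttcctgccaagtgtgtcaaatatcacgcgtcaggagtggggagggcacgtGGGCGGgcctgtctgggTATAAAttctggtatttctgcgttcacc

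GC boxes lay 47 bases before the start of Wnt2, 116, 78 and 73 before that of Wnt2b and 74 before that of Fgf5. Fgf7 had none in the window and a CCAAT 53 bases before its start, and had 2 CpG dinucleotides against 24 in Wnt2b. Wnt10a had a CCAAT at 32 bases and 1 CpG. Fgf21 had a TATAAA at 28 bases and GC boxes at 45 and 121. Of the genes not shown, Wnt11 and Fgf13, with a peak in all 10 deeper libraries, held none of these motifs in the 150 bases. Nor did Fgf11, which reached 1 TPM in mEFs without a peak. Shares were counted over the 250 bases before any annotated start site of a gene, so genes with more start sites had more chances of a match. On this count 31 of 41 ligand genes (75.6%) held a GC box against 48.1% of 22234 protein-coding genes, 20 (48.8%) a CCAAT against 43.9%, and 5 (12.2%) a TATAAA against 17.5%. GC content was taken at the start site where it was highest. Its median was 65.6% in ligand genes and 57.2% in all, and 70.8% in the 7 with a peak in all 10 libraries and 58.4% in the 10 with none. A match describes letters in this window only.

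In the RIP, 2 of 22 ligand genes tested were higher in the CHD2 precipitate than in IgG, and 0 were lower, where 11.5% of all genes were called. Wnt5a was at 22.1 and 30.1 CPM with the CHD2 antibody, 6.87 and 7.42 with IgG and 12.3 and 16.9 in the input (CHD2 over IgG 1.87, SE 0.362, adjusted p 0.0158). Fgf1 was at 127 and 183 CPM, 49.6 and 52, and 60.2 and 83 (1.61, SE 0.321, adjusted p 0.0174). Both CHD2 libraries lay above the other 4 for both genes. With either CHD2 library left out neither passed, at adjusted p of 0.136 to 0.184 for Wnt5a and 0.115 to 0.252 for Fgf1. Over all 11 alternatives Wnt5a lost its call in 2 and Fgf1 in 3, so Fgf1 missed the threshold in another setting too. DESeq2, which called 21.8% of all genes, called these and put Wnt4, Wnt7b, Fgf12 and Fgf13 lower, at -1.70, -1.01, -1.43 and -1.02. By edgeR these 4 had log2 fold changes of -1.62, -0.92, -1.33 and -0.93 and adjusted p of 0.0723, 0.0944, 0.0691 and 0.0935.

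All 6 RIP libraries, labelled as Neuro2a cells, held RNA of mature neurons and of microglia. Slc17a7 was at 552 and 476 TPM with the CHD2 antibody, 1028 and 813 with IgG and 222 and 166 in the input, and Camk2a at 524 to 3390, and no marker of the neuron or macrophage lists was at 0. Across these libraries Slc17a7 varied 6.19-fold, but Camk2a, C1qc, Csf1r and C1qb, the last 3 of them microglial, kept their ratio to it within 1.16, 1.18, 1.28 and 1.33-fold. Several ligand genes moved with them. Fgf13 was 7.25% to 8.6% of Slc17a7 in every library, a range of 1.19-fold, and Wnt7b stayed within 1.41, Fgf11 within 1.45, Fgf10 within 1.69, Fgf14 within 1.88, Fgf12 within 1.96, Wnt9a within 2.08 and Wnt4 within 2.14-fold. Fgf1 (9.6-fold), Wnt5a (13.4), Wnt3 (18) and Wnt11 (68.5) did not keep the ratio, like Phox2a (154) and Hand2 (76.7), which mark the sympathoadrenal lineage of Neuro2a. Phox2a was at 126 and 160 TPM with the CHD2 antibody, 15.4 and 168 with IgG and 379 and 382 in the input. Fgf1 was 61.7% and 71.4% of Phox2a with the CHD2 antibody, 174% and 16.7% with IgG and 5.79% and 10.9% in the input. The IgG libraries thus lay on both sides of the CHD2 libraries on this scale. Levels given above for Neuro2a input include whatever the brain genes brought, and their part in the RIP differences was not tested.

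**Figure D5:**
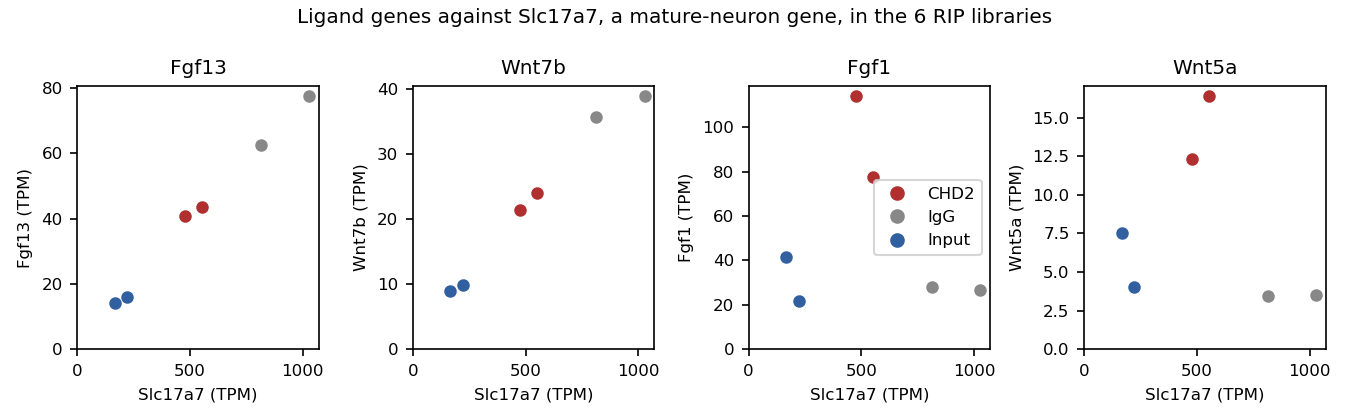
TPM of Fgf13, Wnt7b, Fgf1 and Wnt5a (vertical axes) against TPM of Slc17a7 (horizontal axes) in the 6 RIP libraries, coloured by CHD2, IgG and input; all axes start at 0. Fgf13 and Wnt7b lie near a line through the origin, with ratios to Slc17a7 within 1.19 and 1.41-fold, and Fgf1 and Wnt5a do not, with 9.6 and 13.4-fold.

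Of the other pathway genes tested in the RIP, 14 of 53 were higher and 0 lower, where 11.1% and 0.376% of all genes were. With either CHD2 library left out, 0 of all genes were called. Of 13 Wnt receptors 5 were higher, Fzd5 by 3.35, Fzd7 by 3.16 and Fzd4 by 2.89, and of 9 Wnt feedback targets 2, Znrf3 by 2.90 and Lef1 by 2.22. Of 12 Fgf feedback targets 7 were higher, with Spred2 at 1.92, Etv5 at 1.83 and Spred1 at 1.65 on the log2 scale.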

How the data were processed

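RNA-seq and ATAC-seq samples were analysed, and the 4 4C samples were not used here. The authors ran RSEM on RefSeq transcripts and deposited tables of 24990 rows per RNA library with the expected count, TPM and FPKM, not scaled to one another. ATAC-seq peaks had been called library by library (Bowtie2, MACS2). The authors deposited a score, a fold enrichment (a ratio to local background) and the -log10 of a p-value and q-value for each peak, of which the fold and q were used here. The submitters' processing notes name builds mm9 and mm10, and versions of these tools are not given in the sources used here.

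Expected counts were rounded to whole numbers. The main test was the quasi-likelihood test of edgeR 4.0.16 (R 4.3.3) after filterByExpr and TMM scaling, adjusted by Benjamini-Hochberg over all genes tested, with a threshold of 0.05. All 41 ligand genes matched 1 row each. Every mutant was set against WT libraries from the same set, the RIP libraries were fitted together, and KO and DKO effects were compared over both sets. Replicates are separate libraries by label, and p-values measure only the spread between them. Alternatives were DESeq2 1.42.0, no filter, at least 10 counts in every library, a GC and length correction (lowess span 0.3), the replicate block, and each library left out. For brains they were also the library kit as a covariate and a fit without the TruSeq libraries. Deviations of same-numbered libraries correlated in brains (0.437, 0.529 and 0.747). Replicate 3 of WT and Het brains were both made with TruSeq, so pairing and kit cannot be told apart there. In the other sets these correlations were lower. Start sites came from GENCODE vM1 (mm9). The procedure was tested on simulated data.

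Named with values per library were genes called in any comparison, the 5 highest per source, and in each mutant comparison up to 3 genes of smallest unadjusted p whose groups do not overlap. Of pathway genes, up to 3 per direction were named. The members, lists and tests were chosen with earlier results of these data known.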

Additional observations from a re-analysis of the deposited data

Results flagged for a closer look

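Wnt2 leaned in opposite directions in Het embryos and Het mEFs. Its log2 fold change against WT was -0.22 in E13.5 embryos, with every Het library below every WT library in TMM-scaled CPM, and 0.80 in mEFs, with every Het library above every WT library. In TPM the E13.5 groups overlapped, with Het replicate 2 at 9.92 and WT replicate 2 at 9.89. Neither passed the threshold (edgeR adjusted p 0.732 and 0.256), and the difference was not tested.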

How the results depend on the processing

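Direction was compared across alternatives for the ligand genes called between stages or in the RIP. In each mutant comparison it was compared for the named non-overlapping ligand genes of smallest unadjusted p. None of these genes reversed under any alternative run. For other reported results, such as pathway genes, marker sums and the interaction, a reversal of direction was not tested. Counts of ligand genes called stayed at 0 in Het embryos, Het brains, Het, Chd2 m/m and DKO mEFs under every alternative run. Leaving out 1 library gave 0 to 2 genes in KO mEFs (2 without KO replicate 2), 0 to 1 in the KO and DKO interaction (1 without KO replicate 2, Fgf7 at 0.82, adjusted p 0.0485), 27 to 30 between stages and 0 to 11 in the RIP (0 without either CHD2 replicate, 11 without IgG replicate 2). The RIP count was 4 without the filter, 6 with DESeq2 and 6 with the replicate block, against 2. The replicate block changed no other call; blocked brains again gave 0, and the correlations of the remaining sets were -0.286 to 0.354. The replicate block could not be run for KO mEFs or the interaction, because the KO set's labels share no replicate number with its WT. Genes with a peak in every ATAC-seq library were 1, and 7 without the 2 libraries of fewest peaks, an alternative chosen after seeing the data; the cause of these moves was not tested.

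Counts over all genes depended more on the setting. In KO mEFs 16 genes were called, against 1407 without the filter, 1383 with at least 10 counts in every library, 2565 with DESeq2, 51 with the GC and length correction and 2 to 2827 with 1 library left out. In Het mEFs 23 were called, against 68, 82 and 38 without the filter, with DESeq2 and with the correction, 74 with the block, 61 with both and 3 to 54 with 1 library left out. In DKO mEFs 13 were called, against 103, 219, 75 and 36 without the filter, with DESeq2, with the block and with block and correction, and 3 to 201. In Chd2 m/m mEFs 2 were called, against 6, 1, 12, 99, 0 and 27 without the filter, with 10 counts, with DESeq2, with the block, with the correction and with both, and 0 to 8. In E13.5 embryos 5 were called, against 23 with DESeq2, 1 with the block and 1 to 12, and in E9.5 embryos 0, against 1, 5, 1 and 2 without the filter, with DESeq2, with the correction and with block and correction, and 0 to 6. DESeq2 called 1 in brains against 0. In the RIP 1707 were called, against 2563, 3420 and 3757 without the filter, with DESeq2 and with the block, and 0 to 6468. In the interaction 16 were called, against 226, 26, 1513 and 3 without the filter, with 10 counts, with DESeq2 and with the correction, and 0 to 1764.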
